A study of Mus musculus with 9 samples.

Results

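The genes described here are 10 mouse genes for enzymes that cut the extracellular matrix and for inhibitors of these enzymes, taken by symbol from a table of 54532 genes. They are the secreted matrix metalloproteinases Mmp3, Mmp9, Mmp10 and Mmp13, the membrane-anchored Mmp14, the tissue inhibitors Timp1, Timp2 and Timp3, the membrane-anchored metalloproteinase Adam19 and the serine protease Plau. The RNA data are 9 sequencing libraries, 3 per group, made from polyadenylated RNA of 4T1, an established mouse mammary carcinoma cell line. Au_TCPP cells received Au/Cu-TCPP(Fe)-PEG, a nanomaterial that the labels describe as both a glucose-like oxidase and a consumer of glutathione (GSH). Cu_TCPP cells received Cu-TCPP(Fe)-PEG, which carries the label of GSH consumption only, and Control cells received medium, so the named difference between the materials is the gold. Treatment lasted 24 h, all groups were grown in high-glucose DMEM with serum, and the sources used here give no dose. The cells were cultured alone, so the matrix, the plasma proteins and the other cell types that these enzymes meet in a tumour were not part of the experiment.

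Matrix metalloproteinases are zinc enzymes that are made as inactive precursors, and most are secreted. Together they cut collagens, gelatin, laminin, fibronectin and proteoglycans, and they also release growth factors held in the matrix. The TIMP proteins block them by binding the active site. Plau, the urokinase-type plasminogen activator, turns plasminogen into plasmin, which cuts fibrin and activates several metalloproteinase precursors. The 4T1 line is known for spreading from the mammary gland to distant organs in mice, and breakdown of the matrix by such enzymes is studied as a step of that spread.

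Library totals ran between 15477324 and 17494776 counts. Of the 10 genes, 9 passed the filter on low counts and were tested, while Timp3 had 2 counts in all 9 libraries together. The mean annotated length of a counted gene was 4549 to 4669 nt in Au_TCPP, 5601 to 5720 nt in Cu_TCPP and 5632 to 5754 nt in Control, and long genes were on balance lower in Au_TCPP. For Au_TCPP against Control, the median log2 fold change was 0.67 for genes of up to 1000 nt and -0.45 for genes over 8000 nt. The second Au_TCPP library stood apart, with 2.37% of its counts in mitochondrial genes against 1.09% to 1.47% in the other libraries. Epithelial marker genes fixed for the line summed to 4523 to 5428 CPM in Au_TCPP, 2923 to 3270 CPM in Cu_TCPP and 3020 to 3281 CPM in Control, where CPM are counts scaled to the effective library total. Of these 13 markers 9 were tested, and Krt5 was at 0. With Au_TCPP over Control 7 were called higher and 2 lower (edgeR adjusted p under 0.05), beside 34.4% and 34.7% of all tested genes. The 2 were Erbb2, at 22.9 against 59.9 CPM, and Esr1, at 6.57 against 10.3 CPM. With Cu_TCPP over Control Krt8 was called higher and 5 markers lower, beside 19.2% and 21.2% of all tested genes. Macrophage markers, whose cells also make matrix proteases, summed to 79.9 to 98.5 CPM in Au_TCPP, 27.8 to 31.5 CPM in Cu_TCPP and 40.9 to 44.1 CPM in Control. Only 3 of these 12 markers had enough counts to be tested, and the defining Adgre1, C1qa and C1qb had no count in any library. Fibroblast markers summed to 27.3 to 32.3 CPM in Au_TCPP, 16.5 to 20.1 CPM in Cu_TCPP and 35.9 to 41.2 CPM in Control, with 3 of 11 tested and Col3a1, Pdgfrb, Lum and Thy1 at 0. Neutrophil markers summed to at most 2.76 CPM in any library, with 1 of 10 tested and Ly6g and Retnlg at 0.

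Mmp3, Mmp10 and Mmp13 lie near each other on chromosome 9, in a run of 10 Mmp genes at chr9:7272514-7699585 (mm10). Below are the 140 bases before their annotated starts, shown because these genes were higher together in Au_TCPP than in Cu_TCPP, with the same stretch before an Adam19 start, whose RNA moved the other way, and before Mmp14. The sequences are from RefSeq on GRCm38.p6, 5′ to 3′ along the gene's strand, which is the plus strand for all 5. Capitals mark matches to TGANTCA, the AP-1 motif searched on both strands, and to TATAAA, the TATA box motif searched on the gene's strand. AP-1 is a transcription factor made of Fos and Jun family proteins and is known to act on Mmp promoters.
Mmp3 (chr9:7445682-7445821): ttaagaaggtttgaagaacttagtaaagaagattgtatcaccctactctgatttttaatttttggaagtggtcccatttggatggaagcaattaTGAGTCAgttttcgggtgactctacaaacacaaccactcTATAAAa
Mmp10 (chr9:7502202-7502341): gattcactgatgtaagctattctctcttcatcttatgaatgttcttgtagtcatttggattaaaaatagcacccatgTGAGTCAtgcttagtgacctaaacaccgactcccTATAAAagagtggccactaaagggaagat
Mmp13 (chr9:7272374-7272513): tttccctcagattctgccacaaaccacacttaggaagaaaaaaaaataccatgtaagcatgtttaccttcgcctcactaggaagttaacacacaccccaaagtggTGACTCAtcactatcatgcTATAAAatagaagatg
Adam19, second of 3 listed starts (chr11:46055844-46055983): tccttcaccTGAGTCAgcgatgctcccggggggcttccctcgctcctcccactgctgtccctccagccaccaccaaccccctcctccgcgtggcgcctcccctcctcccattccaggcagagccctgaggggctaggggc
Mmp14 (chr14:54431458-54431597): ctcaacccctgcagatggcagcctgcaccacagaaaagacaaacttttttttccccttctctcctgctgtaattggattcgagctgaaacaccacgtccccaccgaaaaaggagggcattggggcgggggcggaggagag
In the 250 bases before the start, Mmp3, Mmp10 and Mmp13 each held both motifs. The AP-1 motif lay 46 to 40 bases before the start in Mmp3, 63 to 57 in Mmp10 and 35 to 29 in Mmp13. Among 32851 RefSeq promoters, 6.75% held TGANTCA and 7.59% held TATAAA in that window. Neither was found before the starts of Mmp14, Timp1, Timp2 or Timp3, and the table held no entry for Mmp9 or Plau. Of these, Timp1 was also higher in Au_TCPP than in Cu_TCPP. The RefSeq start of Timp2 lay 329 nt inside the deposited gene, so the bases before its deposited start were not searched. Of the 3 listed Adam19 starts, the second alone held TGANTCA, and none held TATAAA. The ETS motif AGGAAG, searched on both strands, was present before Mmp3, Mmp13, Mmp14, Timp1, Timp3 and the first listed Adam19 start, and in 29.5% of all promoters. A match is a description of the letters, and binding was not measured.

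The materials moved these genes in different patterns. With Au_TCPP against Control, Mmp3, Mmp9, Mmp10, Timp1 and Plau rose and Mmp14 and Timp2 fell, which is 5 of 9 tested genes higher and 2 lower. Over all 13915 genes tested, 34.4% were called higher and 34.7% lower, together 69.1%, at an adjusted p under 0.05 in edgeR's quasi-likelihood test. With Cu_TCPP against Control, Adam19 rose while Mmp9, Mmp13, Mmp14 and Timp2 fell, which is 1 of 9 higher and 4 lower against a background of 19.2% and 21.2%, together 40.4%. Between the materials, all 9 tested genes were called: Mmp3, Mmp9, Mmp10, Mmp13, Timp1 and Plau higher in Au_TCPP than in Cu_TCPP and Mmp14, Timp2 and Adam19 lower, against 34.6% and 31.3% of all genes, together 65.9%. In CPM, the libraries of the groups did not overlap for 6 of the 9 with Au_TCPP against Control. The number was 7 with Cu_TCPP against Control and 9 with Au_TCPP against Cu_TCPP. Over all tested genes the shares without overlap were 71.9%, 59.4% and 67.0%. Relative to library totals alone, Plau and Timp1 did overlap between groups. The median log2 fold change of the 9 was 0.68 for Au_TCPP against Control, -0.41 for Cu_TCPP against Control and 0.78 for Au_TCPP against Cu_TCPP, beside medians over all tested genes of -0.01, -0.01 and 0.04. The 3 comparisons share libraries, so their values are set side by side and are not independent. In bulk RNA, fewer cells that make a transcript and less of it per cell cannot be told apart.

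**Figure D1:**
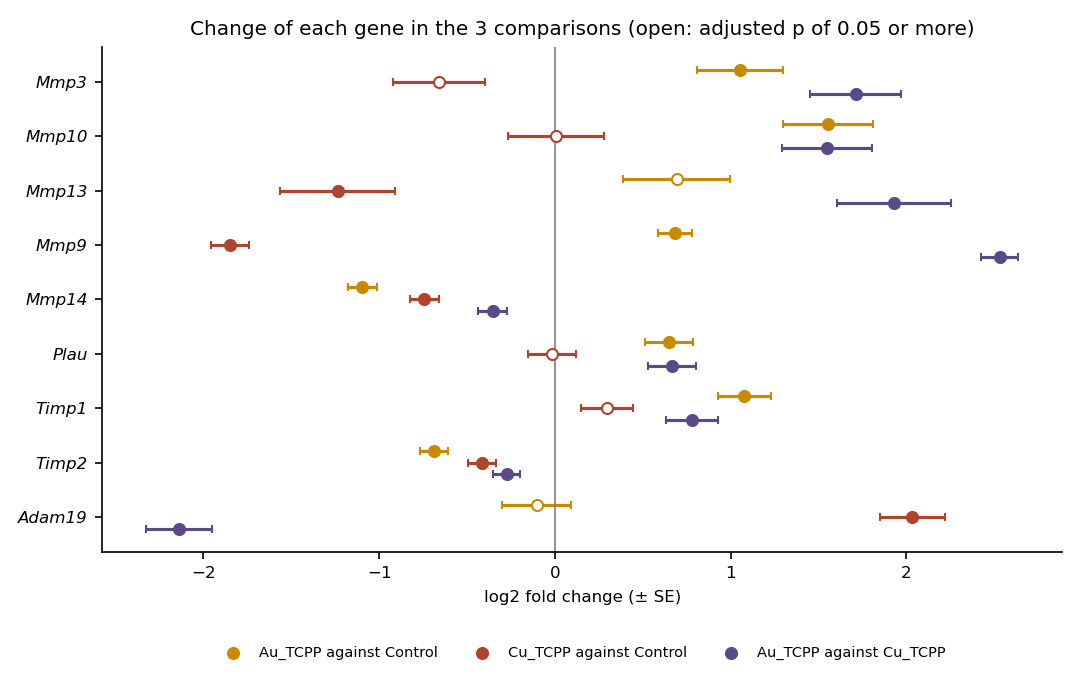
Log2 fold change (x axis, bars ± SE) of the 9 tested genes (y axis) in 3 comparisons of 3 libraries each, with open symbols where the adjusted p was 0.05 or more. Mmp9 lay at 0.68 for Au_TCPP against Control and at -1.85 for Cu_TCPP against Control, and Adam19 was the one gene called higher with Cu_TCPP, at 2.03.

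Mmp3 (chr9:7445822-7455975, mm10, plus strand) and Mmp10 (chr9:7502352-7510240, plus strand) encode stromelysins 1 and 2, which cut proteoglycans, laminin and fibronectin and can activate other metalloproteinase precursors. Mmp3 measured 26.7, 10.9 and 21.9 CPM in Au_TCPP, 6.24, 6.11 and 5.76 CPM in Cu_TCPP and 9.23, 8.25 and 11.1 CPM in Control. The second Au_TCPP library was the lowest of its group and lay just below the highest Control library, while the Cu_TCPP libraries lay below all others. Mmp3 rose 2.08-fold with Au_TCPP over Control, a log2 fold change of 1.05 (SE 0.25, edgeR adjusted p = 0.0018), and was 3.28-fold higher in Au_TCPP than in Cu_TCPP (1.71, SE 0.26, edgeR adjusted p = 5.1e-05). Against Control, Cu_TCPP differed by -0.66 (SE 0.26), which did not pass (edgeR adjusted p = 0.060). The change with Cu_TCPP passed without the second Au_TCPP library, at -0.65 with an edgeR adjusted p of 0.00069, and without the first, at -0.65 with 0.04. It passed under 7 of the 20 alternatives in all, and all groups share one estimate of spread.

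Mmp10 measured 10.4, 5.61 and 13.4 CPM in Au_TCPP, 3.23, 3.56 and 3.22 CPM in Cu_TCPP and 3.56, 3.24 and 3.18 CPM in Control. Every Au_TCPP library was above all 6 others, and the Cu_TCPP and Control libraries overlapped. The gene rose 2.94-fold with Au_TCPP over Control, a log2 fold change of 1.55 (SE 0.26, edgeR adjusted p = 8e-05), the largest rise among the 9 in that comparison. The difference of Cu_TCPP from Control was 0.01, with a 95% interval of -0.53 to 0.54. Mmp3 and Mmp10 share 140 stretches of 50 bases. In all, 8.39% of such stretches of Mmp3 and 8.37% of those of Mmp10 occur in another gene. The effect of these shared stretches on the 2 counts was not measured.

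Mmp13 (chr9:7272514-7283331, plus strand) encodes collagenase 3, which cuts fibrillar collagens. It measured 24.3, 9.10 and 26.0 CPM in Au_TCPP, 5.67, 4.57 and 5.31 CPM in Cu_TCPP and 14.3, 10.3 and 12.1 CPM in Control. Au_TCPP replicates 1 and 3 were above Control and replicate 2 was below it, while all Cu_TCPP libraries lay under all others. With Cu_TCPP, Mmp13 fell to 0.42 of its Control level, a log2 fold change of -1.24 (SE 0.33, edgeR adjusted p = 0.011). For Au_TCPP against Control the log2 fold change of 0.69 (SE 0.30) did not pass (edgeR adjusted p = 0.061). That outcome depended on the libraries and on the setting, and the change passed under 3 of the 20 alternatives. Without the second Au_TCPP library it was 1.01 (edgeR adjusted p = 1.3e-06), and without replicate 3 it was 0.42 (edgeR adjusted p = 0.26). With all libraries kept, it passed with DESeq2, at 0.70 (DESeq2 adjusted p = 0.024), and with a replicate block, at 0.62 (edgeR adjusted p = 0.019). Mmp13 was 3.81-fold higher in Au_TCPP than in Cu_TCPP (log2 fold change 1.93, SE 0.33, edgeR adjusted p = 0.00026).

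**Figure D2:**
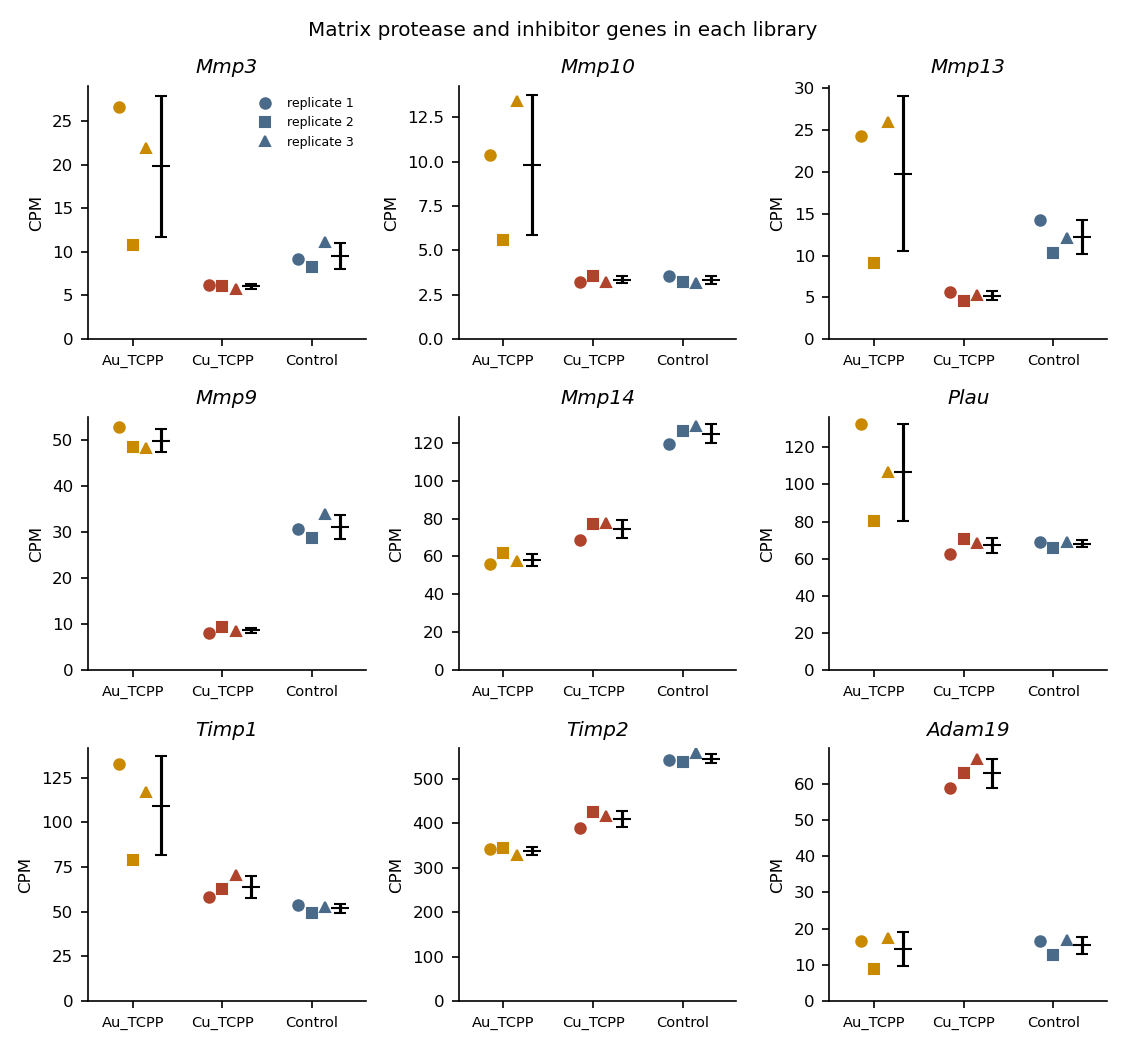
CPM (y axis, from 0) of the 9 tested genes in each of the 9 libraries by group, with symbols for the replicate number and black bars for the group mean ± SD of 3 libraries. In Au_TCPP the second library, drawn as a square, was the lowest of the 3 for Mmp3, Mmp10, Mmp13, Plau, Timp1 and Adam19, as in Mmp13 with 9.10 CPM beside 24.3 and 26.0 CPM.

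The other Mmp genes of this chromosome 9 run were at or near 0. Mmp7, Mmp8, Mmp20 and Mmp27 had no count in any library. Summed over a group's libraries, Mmp12, which encodes a macrophage elastase, had 9 counts in Au_TCPP, 0 in Cu_TCPP and 1 in Control, and Mmp1a had 2 in Au_TCPP, 3 in Cu_TCPP and 0 in Control. Mmp1b, a rodent relative of the interstitial collagenase gene, had 11 counts in Au_TCPP, 47 in Cu_TCPP and 12 in Control. Mmp1b rose with Cu_TCPP, with a log2 fold change over Control of 1.95 (SE 0.56, edgeR adjusted p = 0.013), at very low levels in every group.

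Mmp9 (chr2:164940780-164955850, plus strand) encodes gelatinase B, which cuts denatured collagens and the type IV collagen of basement membranes. It measured 52.7, 48.4 and 48.3 CPM in Au_TCPP, 8.11, 9.29 and 8.42 CPM in Cu_TCPP and 30.6, 28.6 and 33.8 CPM in Control. No library of one group overlapped another group, and Au_TCPP replicates 2 and 3 were close to equal. The summed macrophage markers stood in the same order of groups, as did Cd68, at 61.3 CPM in Au_TCPP, 11.3 CPM in Cu_TCPP and 27.1 CPM in Control. Cd14 averaged 20.5 CPM in Au_TCPP, 11.7 CPM in Cu_TCPP and 12.2 CPM in Control. It was called higher in Au_TCPP than in Control (edgeR adjusted p = 4e-05) and than in Cu_TCPP (edgeR adjusted p = 2.1e-05). Between Cu_TCPP and Control Cd14 was not called (edgeR adjusted p = 0.69). Mrc1 did not follow the order and was higher in Cu_TCPP than in Control, at 5.92 against 2.25 CPM. Adgre1, C1qa and C1qb were at 0, and the part of these markers in the result was not tested. Mmp9 rose 1.61-fold with Au_TCPP over Control (log2 fold change 0.68, SE 0.10, edgeR adjusted p = 1.7e-05). It fell with Cu_TCPP, to 0.28 of its Control level (log2 fold change -1.85, SE 0.11, edgeR adjusted p = 4.6e-08). The materials thus moved the gene to opposite sides of Control, and their own difference was 5.78-fold, or 2.53 on the log2 scale (SE 0.11, edgeR adjusted p = 1.3e-10), the largest among the 9 genes with TMM factors. With library totals alone it was 2.16, and Adam19 at -2.52 was then the largest. Scaling by library totals alone gave 0.26 (edgeR adjusted p = 0.033) for Au_TCPP against Control. Lcn2, whose protein lipocalin 2 binds gelatinase B and shields it from breakdown, averaged 882 ± 204 CPM in Au_TCPP, 166 ± 18.9 CPM in Cu_TCPP and 289 ± 13.2 CPM in Control (SD, n = 3 each). Lcn2 also rose with Au_TCPP over Control, at 1.61 (SE 0.15, edgeR adjusted p = 2.4e-07), and fell with Cu_TCPP, at -0.80 (SE 0.14, edgeR adjusted p = 0.00059).

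Mmp14 (chr14:54431612-54445364, plus strand) encodes MT1-MMP, a collagenase anchored in the cell membrane that activates the Mmp2 precursor in a complex with TIMP-2. Mmp2 itself had 68 counts in all libraries together and was not tested. Mmp14 measured 55.8, 61.9 and 57.4 CPM in Au_TCPP, 68.9, 77.3 and 77.5 CPM in Cu_TCPP and 119.2, 126.1 and 129.1 CPM in Control. The libraries fell into 3 separate ranges with Au_TCPP lowest. Mmp14 fell with both materials, to a level 2.14-fold lower in Au_TCPP than in Control (log2 fold change -1.10, SE 0.08, edgeR adjusted p = 2.9e-08) and 1.67-fold lower in Cu_TCPP than in Control (-0.74, SE 0.08, edgeR adjusted p = 9.7e-06). With Au_TCPP over Control its log2 fold change ranged from -1.52 to -0.87 over the 20 alternatives. With Au_TCPP against Cu_TCPP the difference was -0.35 (SE 0.08, edgeR adjusted p = 0.0016), -0.72 with library totals alone and -0.21 with offsets for gene length.

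Timp2 (chr11:118301069-118355740, minus strand) encodes the inhibitor that takes part in that complex. It was the most counted of the 10 genes, with 343.0, 345.2 and 328.5 CPM in Au_TCPP, 389, 425.6 and 415.8 CPM in Cu_TCPP and 541.9, 538.3 and 558.5 CPM in Control. The groups stood in the same order as for Mmp14 and did not overlap. Timp2 fell with Au_TCPP to 0.62 of its Control level (log2 fold change -0.69, SE 0.08, edgeR adjusted p = 2.2e-06) and with Cu_TCPP to 0.75 of it (-0.41, SE 0.08, edgeR adjusted p = 0.00085). The ratio of Mmp14 to Timp2, per gene length, was 0.106, 0.117 and 0.114 in Au_TCPP, 0.116, 0.119 and 0.122 in Cu_TCPP and 0.144, 0.153 and 0.151 in Control. All treated libraries lay below Control in this ratio, so Mmp14 was lower relative to Timp2 with either material. Reck, a membrane-anchored inhibitor of several metalloproteinases, fell as well, with 4.65 ± 0.91 CPM in Au_TCPP, 6.97 ± 0.31 CPM in Cu_TCPP and 12.8 ± 0.93 CPM in Control (SD, n = 3 each). Its log2 fold change was -1.45 (SE 0.16, edgeR adjusted p = 1.7e-06) for Au_TCPP against Control and -0.88 (SE 0.15, edgeR adjusted p = 0.00043) for Cu_TCPP against Control.

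Timp1 (chrX:20870166-20874735, plus strand) encodes a secreted inhibitor of most soluble metalloproteinases that also binds the Mmp9 precursor. It measured 132.8, 78.7 and 116.8 CPM in Au_TCPP, 58.0, 62.7 and 70.4 CPM in Cu_TCPP and 54.0, 49.2 and 52.4 CPM in Control. Au_TCPP was highest and Control lowest, with no overlap between groups in CPM. Relative to library totals alone the second Au_TCPP library overlapped Cu_TCPP. It held 1081 Timp1 counts in a total of 15477324, beside 1247 in 16595300 for Cu_TCPP replicate 3. Timp1 rose 2.11-fold with Au_TCPP over Control (log2 fold change 1.08, SE 0.15, edgeR adjusted p = 2.2e-05), opposite in direction to Timp2. For Cu_TCPP against Control the log2 fold change was 0.30 (SE 0.15), which did not pass (edgeR adjusted p = 0.13), although it did at 0.31 without the second Au_TCPP library (edgeR adjusted p = 0.0026). At 888 nt Timp1 is the shortest of the 10 genes. With offsets for the trend on gene length its rise with Au_TCPP over Control was 0.67 (edgeR adjusted p = 0.0038), and its difference between Au_TCPP and Cu_TCPP, 0.78 without the offsets, became 0.31 and no longer passed (edgeR adjusted p = 0.13). Timp3 (chr10:86300372-86349506, plus strand) encodes an inhibitor that binds to the matrix and also blocks several ADAM proteases. It had no count in Au_TCPP, 1 count in Cu_TCPP and 1 in Control, too few for a test. Of its 8144 exonic nt, 1733 overlap exons of Syn3 on the opposite strand, which had 87 counts in all libraries together.

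Adam19 (chr11:46055992-46147343, plus strand) encodes a membrane-anchored disintegrin and metalloproteinase that sheds neuregulins. It measured 16.6, 8.96 and 17.4 CPM in Au_TCPP, 58.9, 62.9 and 66.9 CPM in Cu_TCPP and 16.6, 12.7 and 16.8 CPM in Control. The Cu_TCPP libraries were far above all 6 others, and the Au_TCPP and Control libraries overlapped. Adam19 rose 4.10-fold with Cu_TCPP over Control (log2 fold change 2.03, SE 0.18, edgeR adjusted p = 3.3e-06) and was 4.40-fold lower in Au_TCPP than in Cu_TCPP (-2.14, SE 0.19, edgeR adjusted p = 3.1e-07). Au_TCPP differed from Control by -0.10, with a 95% interval of -0.49 to 0.28. The sign of that value depended on the setting, at -0.54 (edgeR adjusted p = 0.015) with library totals alone and 0.12 (edgeR adjusted p = 0.38) without the second Au_TCPP library. Exons of Adam19 overlap the antisense genes Gm16033 and Gm16034 over 587 and 480 nt. Both had 0 counts in all libraries, and the sources used here do not give whether reads were counted by strand.

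Adam12 and Adam22 also had their highest levels in Cu_TCPP. Adam12, a relative of Adam19 that also sheds growth factors, averaged 21.99 ± 2.58 CPM in Au_TCPP, 83.1 ± 1.34 CPM in Cu_TCPP and 33.4 ± 0.61 CPM in Control (SD, n = 3 each). It rose with Cu_TCPP over Control by 1.31 on the log2 scale (SE 0.09, edgeR adjusted p = 2.2e-07) and fell with Au_TCPP, at -0.60 (SE 0.09, edgeR adjusted p = 4.7e-05), a call lost with offsets for gene length, where it was -0.18 (edgeR adjusted p = 0.15). Adam22, a member without protease activity, averaged 2.70 ± 0.46 CPM in Au_TCPP, 12.7 ± 0.36 CPM in Cu_TCPP and 7.03 ± 1.18 CPM in Control. The list counts here and below stand beside the shares over all tested genes. These were 34.4% higher and 34.7% lower with Au_TCPP over Control, and 19.2% and 21.2% with Cu_TCPP over Control. Of the 9 Adam genes tested, 1 rose and 7 fell with Au_TCPP over Control, with a median log2 fold change of -0.59. That median was -0.32 with offsets for gene length and -1.02 with library totals alone. With Cu_TCPP over Control 4 rose and none fell, with a median of 0.24, although library totals alone gave 1 lower. The one that rose with Au_TCPP was Adam8, a sheddase of leukocytes and tumour cells, at 74.3 ± 12.1 CPM against 42.6 ± 1.36 CPM in Control. Adam8 also rose with Cu_TCPP, to 65.3 ± 1.55 CPM (0.62 over Control, edgeR adjusted p = 0.00037). It was not called between the materials (0.19, edgeR adjusted p = 0.13). Adam17, the main sheddase of tumour necrosis factor and of EGFR ligands, was lower in Au_TCPP than in Control, at 61.7 ± 7.70 CPM against 106 ± 0.57 CPM (log2 fold change -0.78, SE 0.09, edgeR adjusted p = 2.3e-06).

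Plau (chr14:20836660-20843385, plus strand) measured 132.8, 80.2 and 106.6 CPM in Au_TCPP, 62.4, 70.7 and 68.3 CPM in Cu_TCPP and 69.2, 65.8 and 69.0 CPM in Control. In CPM all Au_TCPP libraries were above the 6 others, with the second closest to them. Relative to library totals alone the second lay below Control. It held 1102 Plau counts in a total of 15477324, beside 1219 in 16638173 for Control replicate 2. Plau rose 1.57-fold with Au_TCPP over Control (log2 fold change 0.65, SE 0.14, edgeR adjusted p = 0.00075), a call lost with library totals alone, at 0.22 (edgeR adjusted p = 0.12). For Cu_TCPP against Control the difference was -0.02, with a 95% interval of -0.29 to 0.25, and its sign turned with the setting, to 0.01 with RLE factors. Against Cu_TCPP, Plau was 1.59-fold higher in Au_TCPP (0.67, SE 0.14, edgeR adjusted p = 0.00064), and 0.44 without the first Au_TCPP library (edgeR adjusted p = 0.0048).

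Plaur had a larger fold change than Plau with Au_TCPP, a difference that was not tested. Plaur, the receptor that holds Plau at the cell surface, measured 666.1, 336.1 and 726.6 CPM in Au_TCPP, 122.3, 146.7 and 126.1 CPM in Cu_TCPP and 63.4, 62.6 and 72.4 CPM in Control. The groups did not overlap, and Plaur rose 8.71-fold with Au_TCPP over Control (log2 fold change 3.12, SE 0.25, edgeR adjusted p = 1.2e-06) and 1.99-fold with Cu_TCPP over Control (0.99, SE 0.24, edgeR adjusted p = 0.0075). Plaur thus rose with both materials, while Plau was called with Au_TCPP alone. Serpinb2, which encodes an inhibitor of Plau, stayed at low levels, with 1.89 ± 0.27 CPM in Au_TCPP, 2.97 ± 0.69 CPM in Cu_TCPP and 0.11 ± 0.19 CPM in Control, where 2 of 3 libraries had no count, and was called higher with both materials.

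Of the 9 plasminogen activation genes tested, 7 rose and none fell with Au_TCPP over Control, with a median log2 fold change of 1.15, and library totals alone gave 6 higher and 1 lower with a median of 0.72. With Cu_TCPP over Control 5 rose and 2 fell, with a median of 0.48. Anxa2 and S100a10, whose proteins form a surface receptor for plasminogen, rose with both materials. Anxa2 averaged 1830 ± 359 CPM in Au_TCPP, 1269 ± 34.2 CPM in Cu_TCPP and 909 ± 30.5 CPM in Control (SD, n = 3 each). Plat, the tissue-type activator, was lower in Cu_TCPP, at 4.71 ± 0.48 CPM against 12.1 ± 1.45 CPM in Control (log2 fold change -1.36, SE 0.19, edgeR adjusted p = 6.7e-05). In Au_TCPP Plat averaged 11.2 ± 2.71 CPM, and that difference from Control did not pass (-0.12, edgeR adjusted p = 0.57).

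Levels of different genes were compared per gene length, as FPKM, fragments scaled by gene length and library size. In Au_TCPP, Timp1 at 121 ± 31.2 FPKM came first and its libraries overlapped those of Timp2 at 84.9 ± 1.96 FPKM. Plau followed at 44.0 ± 11.1 FPKM. Mmp9 at 13.8 ± 0.74 FPKM, Mmp3 at 10.8 ± 4.46, Mmp14 at 9.56 ± 0.45, Mmp13 at 7.24 ± 3.43 and Mmp10 at 5.57 ± 2.26 FPKM followed. In that stretch each gene overlapped its neighbour, while Mmp9 lay wholly above Mmp14, Mmp13 and Mmp10, and Mmp14 wholly above Mmp10. Adam19 came last of those tested at 1.97 ± 0.65 FPKM. In Cu_TCPP the order was Timp2 at 106 ± 4.91 FPKM, Timp1 at 72.2 ± 7.17, Plau at 28.5 ± 1.80, Mmp14 at 12.6 ± 0.83, Adam19 at 8.90 ± 0.58, Mmp3 at 3.37 ± 0.13, Mmp9 at 2.45 ± 0.17, Mmp13 at 1.95 ± 0.21 and Mmp10 at 1.95 ± 0.11 FPKM. Of these neighbours Mmp13 and Mmp10 overlapped. In Control the order was Timp2 at 138 ± 3.31 FPKM, Timp1 at 57.3 ± 2.65, Plau at 28.2 ± 0.82, Mmp14 at 20.6 ± 0.93, Mmp9 at 8.61 ± 0.76, Mmp3 at 5.20 ± 0.82, Mmp13 at 4.49 ± 0.73, Adam19 at 2.12 ± 0.32 and Mmp10 at 1.90 ± 0.11 FPKM (SD, n = 3). In that order, the libraries of Mmp3 and Mmp13 overlapped, as did those of Adam19 and Mmp10, and the other neighbours were apart. Inhibitors thus led the list in all groups, and in Cu_TCPP and Control the membrane-anchored Mmp14 was the highest metalloproteinase among the 10 genes. Adam9, outside these 10, lay higher, with a mean of 42.7 FPKM in Cu_TCPP and 35.2 FPKM in Control.

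**Figure D3:**
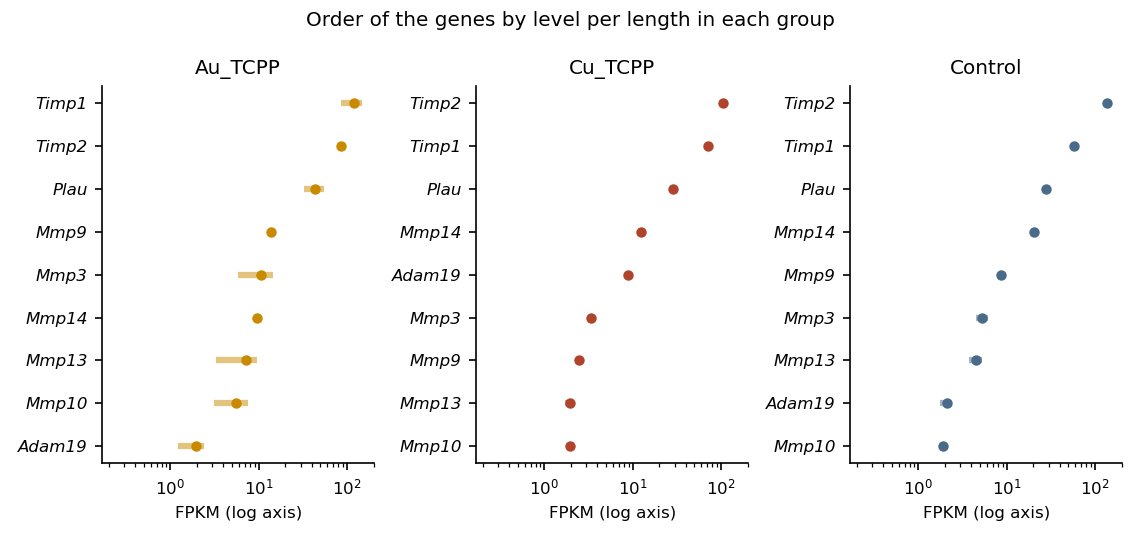
FPKM (x axis, log scale) of the 9 tested genes in each group, sorted from high to low, with points for the mean of 3 libraries and bars from the lowest to the highest library; Timp3 is left out. Timp1 stood first in Au_TCPP at 121 FPKM, and Timp2 stood first in Cu_TCPP at 106 FPKM and in Control at 138 FPKM.

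Summed per length, the 5 metalloproteinase genes came to 53.1, 35.6 and 51.9 FPKM in Au_TCPP, 21.4, 22.9 and 22.6 FPKM in Cu_TCPP and 40.3, 38.8 and 43.2 FPKM in Control. Cu_TCPP lay below Control in every library, while Au_TCPP overlapped Control through its second library. The 3 Timp genes summed to 232.8, 171.7 and 211.7 FPKM in Au_TCPP, 166.1, 180.9 and 187.4 FPKM in Cu_TCPP and 195.4, 189.9 and 199.7 FPKM in Control. The ratio of the Timp sum to the Mmp sum was 4.39, 4.82 and 4.08 in Au_TCPP, 7.75, 7.90 and 8.29 in Cu_TCPP and 4.85, 4.89 and 4.62 in Control. Transcripts of inhibitors therefore outnumbered those of the 5 proteases most in Cu_TCPP, and the Au_TCPP and Control libraries overlapped in this ratio. Mmp9 relative to Timp1 was 0.10, 0.15 and 0.10 in Au_TCPP, 0.035, 0.037 and 0.030 in Cu_TCPP and 0.14, 0.15 and 0.16 in Control. These sums and ratios describe RNA and not protein or enzyme activity, and they carry no test.

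Beyond the genes above, the Mmp family list held 23 genes, of which 5 had no count and 11 were tested, including the 5 members. With Au_TCPP against Control 4 rose and 4 fell, with a median log2 fold change of 0.33, which was -0.09 with library totals alone, 0.03 with offsets for gene length and 0.02 without the second Au_TCPP library. With Cu_TCPP against Control 2 rose and 7 fell, with a median of -0.80. Mmp11, stromelysin 3, averaged 10.2 ± 4.45 CPM in Au_TCPP, 14.4 ± 0.64 CPM in Cu_TCPP and 24.98 ± 0.39 CPM in Control (SD, n = 3 each), and fell with both materials. Its log2 fold change was -1.28 (SE 0.21, edgeR adjusted p = 0.00011) with Au_TCPP and -0.80 (SE 0.20, edgeR adjusted p = 0.0067) with Cu_TCPP. Mmp28, epilysin, also fell with both, to 1.42 ± 0.47 CPM in Au_TCPP and 1.51 ± 0.31 CPM in Cu_TCPP, against 5.60 ± 0.44 CPM in Control. Mmp24, a membrane-type enzyme, rose with both but stayed low, at 3.18 ± 1.30 CPM in Au_TCPP, 1.20 ± 0.02 CPM in Cu_TCPP and 0.53 ± 0.17 CPM in Control. The secreted stromelysin 3 and the stromelysins Mmp3 and Mmp10 thus moved apart with Au_TCPP.

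Adamts1, a secreted protease that cuts the proteoglycans aggrecan and versican, had the largest change in the Adamts list with Au_TCPP. It measured 205.7, 252.8 and 222.3 CPM in Au_TCPP, 55.5, 59.1 and 57.4 CPM in Cu_TCPP and 28.1, 25.1 and 25.9 CPM in Control. It rose 8.60-fold with Au_TCPP over Control (log2 fold change 3.11, SE 0.10, edgeR adjusted p = 7.5e-12) and 2.17-fold with Cu_TCPP over Control (1.12, SE 0.09, edgeR adjusted p = 1e-06), the one riser of 6 tested in both comparisons. Of the others, 4 fell with Au_TCPP and 5 with Cu_TCPP. The procollagen-processing Adamts14 measured 15.1 ± 2.48 CPM in Au_TCPP, 39.2 ± 2.41 CPM in Cu_TCPP and 55.6 ± 3.48 CPM in Control. Adamts7, which cuts the cartilage protein COMP, measured 3.72 ± 0.16 CPM in Au_TCPP, 4.24 ± 0.49 CPM in Cu_TCPP and 17.1 ± 0.38 CPM in Control.

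**Figure D4:**
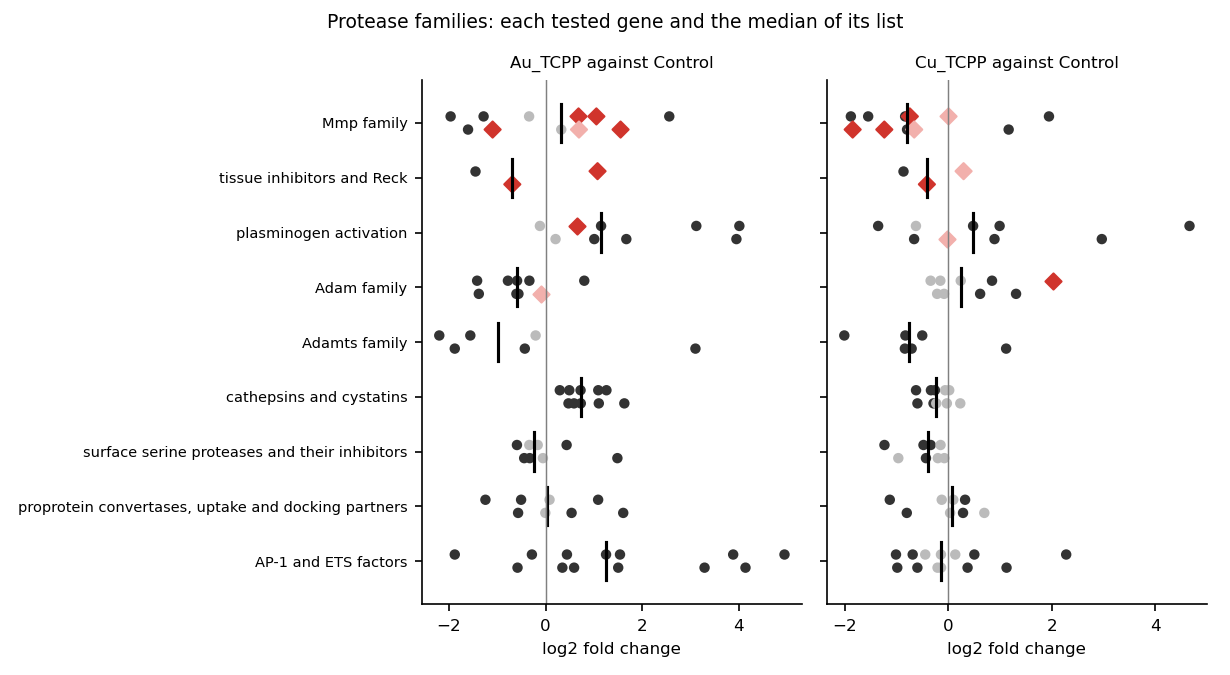
Log2 fold change (x axis) of every tested gene in 9 lists (y axis) for Au_TCPP and Cu_TCPP against Control, with red diamonds for the genes described one by one here, circles for other list genes, pale symbols for an adjusted p of 0.05 or more and a bar for the list median. Plasminogen activation genes had a median of 1.15 with Au_TCPP and 0.48 with Cu_TCPP, and Adam genes -0.59 with Au_TCPP and 0.24 with Cu_TCPP.

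Cathepsins, the lysosomal proteases that can act outside the cell, and their cystatin inhibitors were all called higher in Au_TCPP than in Control, 10 of 10 tested. Over all tested genes 34.4% were called higher. The median log2 fold change of the list was 0.73. With offsets for gene length 9 of the 10 were called, and Ctsz was not. With library totals alone 4 of the 10 were called, none of them lower, the median was 0.29, and Ctsa turned to -0.12, which did not pass. With Cu_TCPP against Control none rose and 5 fell, with a median of -0.25, or 3 fell with a median of -0.15 with offsets for gene length. Cathepsin D (Ctsd) averaged 207 ± 16.3 CPM in Au_TCPP, 72.4 ± 4.95 CPM in Cu_TCPP and 86.6 ± 2.68 CPM in Control (SD, n = 3 each). The inhibitor gene Cstb averaged 242 ± 3.66 CPM in Au_TCPP, 51.6 ± 5.27 CPM in Cu_TCPP and 78.0 ± 5.44 CPM in Control. Proteases and inhibitors of this list thus rose together with Au_TCPP. Of 8 surface serine proteases and inhibitors, 2 rose and 3 fell with Au_TCPP over Control (median -0.25). Library totals alone gave 1 higher and 5 lower (median -0.66), and leaving out the second Au_TCPP library gave 2 higher and 5 lower (median -0.43). With Cu_TCPP over Control 4 fell (median -0.39), or 2 with offsets for gene length. St14, matriptase, fell with both materials but lost both calls with offsets for gene length.

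Among 8 genes for convertases, uptake receptors and docking partners, 3 rose and 3 fell with Au_TCPP over Control (median 0.04, -0.38 with library totals alone and 0.34 with offsets for gene length) and 2 rose and 2 fell with Cu_TCPP (median 0.07). Bsg, basigin, a surface protein known for inducing metalloproteinases in neighbouring cells, averaged 1193 ± 105 CPM in Au_TCPP, 600 ± 29.3 CPM in Cu_TCPP and 561 ± 23.5 CPM in Control. It rose with Au_TCPP over Control, at 1.09 (SE 0.09, edgeR adjusted p = 7.2e-08), and with Cu_TCPP the difference did not pass (0.10, edgeR adjusted p = 0.40). Lrp1, the receptor that takes up and clears several metalloproteinases, fell with both, to 214 ± 60.8 CPM in Au_TCPP and 232 ± 19.4 CPM in Cu_TCPP, against 508 ± 23.5 CPM in Control. Furin, which removes the propeptide of Mmp14, measured 115 ± 14.8 CPM in Au_TCPP, 150 ± 17.7 CPM in Cu_TCPP and 164 ± 7.80 CPM in Control. Furin was called lower with Au_TCPP, at -0.51 (SE 0.11, edgeR adjusted p = 0.0007), but not with offsets for gene length, at -0.13 (edgeR adjusted p = 0.28).

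Of the 13 AP-1 and ETS factor genes, 10 rose and 3 fell with Au_TCPP over Control, with a median of 1.25, and 7 rose and 3 fell with a median of 0.83 with library totals alone. With Cu_TCPP over Control 4 rose and 4 fell, with a median of -0.14. Fos measured 83.9, 65.5 and 66.1 CPM in Au_TCPP, 1.93, 1.38 and 1.81 CPM in Cu_TCPP and 1.72, 2.64 and 2.58 CPM in Control. Fos rose 30.9-fold with Au_TCPP over Control (log2 fold change 4.95, SE 0.17, edgeR adjusted p = 2e-11), and Cu_TCPP did not pass against Control (-0.45, edgeR adjusted p = 0.13). Jun averaged 835 ± 9.52 CPM in Au_TCPP, 67.1 ± 2.37 CPM in Cu_TCPP and 47.3 ± 2.89 CPM in Control, a log2 fold change of 4.14 for Au_TCPP and 0.51 for Cu_TCPP. Fosl1, the gene of FRA-1, averaged 848 ± 203 CPM in Au_TCPP, 420 ± 29.9 CPM in Cu_TCPP and 86.4 ± 4.97 CPM in Control, and rose with both materials. Etv1, an ETS factor gene, fell with both, to 25.8 ± 3.89 CPM in Au_TCPP and 47.8 ± 6.19 CPM in Cu_TCPP, against 94.8 ± 3.14 CPM in Control. Any link of these factors to the protease genes was not tested.

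The genes whose log2 CPM ran most like each of the 9 across the 9 libraries were found by Pearson's r among tested genes with a mean of at least 5 CPM. They were Limd2 for Mmp3 (r = 0.992), Ccndbp1 for Mmp9 (r = 0.996), Calr3 for Mmp10 (r = 0.995), Traf1 for Mmp13 (r = 0.986), Sun1 for Mmp14 (r = 0.996), Fhdc1 for Timp1 (r = 0.992), Ptpdc1 for Timp2 (r = 0.996), Sh2d5 for Adam19 (r = 0.991) and Tnnt2 for Plau (r = 0.979). None of the 9 was among the 3 genes most like another of them. Spp1, the gene of osteopontin, was the third most like Mmp13 (r = 0.979), Anxa8 the second most like Mmp9 (r = 0.996) and Anxa5 the third most like Plau (r = 0.971). All genes share the same 9 libraries in 3 groups, and the values are a description with no test.

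Each fold change was set beside 20 alternatives. Over all genes, scaling by library totals alone moved the median log2 fold change to -0.43 for Au_TCPP against Control and to -0.33 for Au_TCPP against Cu_TCPP. Under that scaling 27.0% of the calls for Au_TCPP against Control were higher, against 49.8% with TMM factors. Mmp3, Mmp9, Mmp10 and Timp1 stayed called higher with Au_TCPP over Control under it, at 0.62, 0.26, 1.12 and 0.64, and Mmp14 and Timp2 stayed called lower, at -1.52 and -1.11. Adam19 with Cu_TCPP over Control ranged from 1.67 to 2.12 over the 20 alternatives and was called in each.

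**Figure D5:**
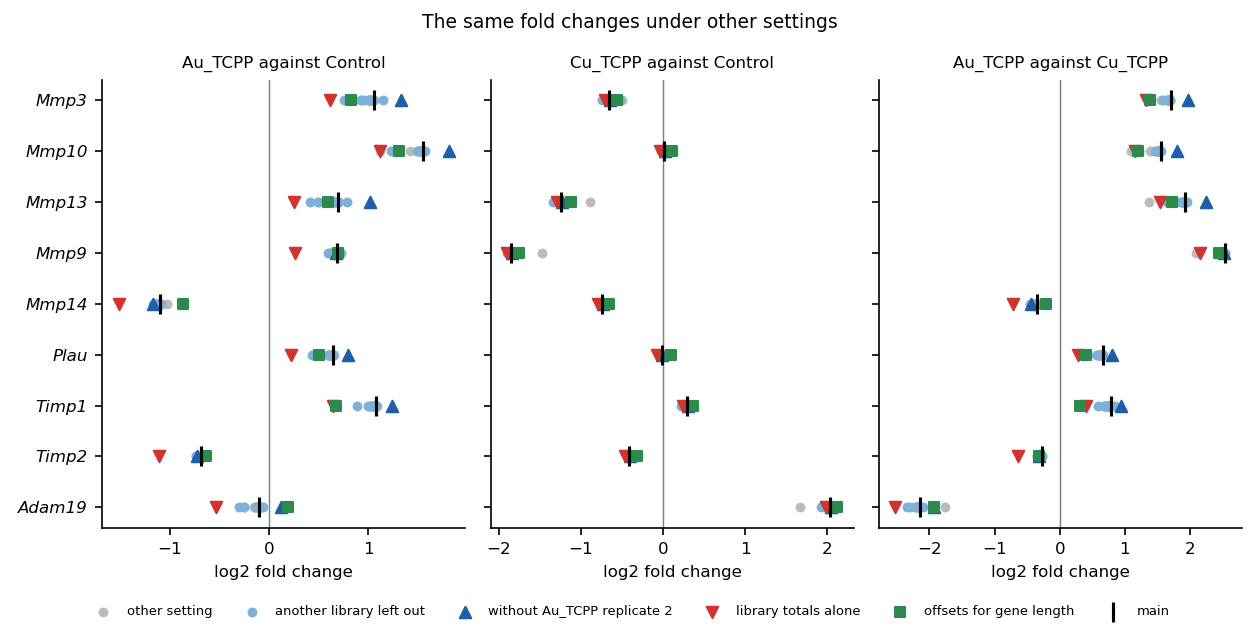
Log2 fold change (x axis) of the 9 tested genes (y axis) in 3 comparisons, with a black bar for the values reported above and symbols for the same value under other settings or with a library left out. Library totals alone, drawn as red triangles, lay below the reported values of Au_TCPP against Control, as for Plau at 0.22 beside 0.65.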

How the data were processed

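Polyadenylated RNA of 4T1 cells went into 9 libraries with a QIAseq FX Single Cell kit and was read on a HiSeq2000, per the labels' protocols, and titles gave the groups. The submitters' processing notes name HTSeq, Cufflinks 2.1.1, Bowtie 0.12.9 and the mm10 build. The authors deposited unnormalized read counts per gene, per the file headers, with totals of 15477324 to 17494776 per library. The authors also deposited FPKM, per the file headers, which equal count over length and total times a factor per library of 0.875 to 1.238 whose origin the sources used here do not state. The authors' fold changes, p-values and group means were not used here.

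The test of the counts was that of edgeR 4.0.16 under R 4.3.3 (TMM factors, filterByExpr, robust quasi-likelihood fit of all 9 libraries, Benjamini-Hochberg over 13915 genes, called at an adjusted p under 0.05). CPM use TMM-scaled totals, and SE is the absolute log2 fold change over the square root of F. The fit was tested on simulated data in which few genes changed, as many up as down. That setting lacks the broad shift of the Au_TCPP libraries, so it does not bear on the scaling. The labels do not say that replicates are separate cultures: p-values then measure only how far these samples spread, and that spread may be technical. The members and gene lists were chosen with earlier results of these data known, so their counts are descriptions. Text names all 10 members, list genes with the smallest p per list and comparison or at least 5 CPM in a group, and the 3 genes most like each member. A gene of the plasminogen activation list is counted there but not reported here by itself. Mmp1a, Mmp1b, Mmp7, Mmp8, Mmp12, Mmp20 and Mmp27, outside that rule, were named for their place on chromosome 9 after their values were seen. Mmp2, also outside it, was named for its complex with Mmp14. Matching used GENCODE M21 and RefSeq promoters (GRCm38.p6, 8 of 10 members). Alternatives were DESeq2 1.42.0, RLE factors, library totals alone, a minimum of 1 CPM in 3 libraries, no low-count filter, fits of the 6 compared libraries, a replicate block, offsets for gene length (spline, 5 degrees of freedom), an absolute log2 fold change of at least 1, limma 3.58.1 on log2(FPKM + 1) and log2(FPKM + 0.1), and leaving out each library. List counts under 4 of these settings were added after seeing the data. Tables and figures used Python 3.11.15, pandas 2.3.3, scipy 1.17.1, numpy 2.4.6 and matplotlib 3.10.9.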

Additional observations from a re-analysis of the deposited data

How the results depend on the processing

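Of 540 values of the 9 tested genes under the alternatives, 501 kept direction and call, 11 lost the call, 14 gained it and 14 turned sign. Those that turned were far from passing. Adam19 for Au_TCPP against Control was 0.186 with offsets for gene length and 0.123 without Au_TCPP replicate 2, and lay between -0.301 and 0.123 over the left-out libraries. Mmp10 for Cu_TCPP against Control was -0.043 with library totals alone, and -0.029, -0.001 and -0.011 without Cu_TCPP replicate 2, Control replicate 2 and Control replicate 3, and lay between -0.029 and 0.063 over the left-out libraries. Plau for Cu_TCPP against Control was 0.011 with RLE factors and with DESeq2, 0.006 with no low-count filter, 0.015 with limma on either FPKM scale, 0.092 with offsets for gene length, 0.041 without Cu_TCPP replicate 1 and 0.006 without Control replicate 3. An absolute log2 fold change of at least 1 left 4003 of 9611 genes for Au_TCPP against Control with 3 members higher and 1 lower, 1146 of 5617 for Cu_TCPP against Control with 1 member higher and 2 lower, and 3729 of 9176 for Au_TCPP against Cu_TCPP with 4 members higher and 1 lower. For Cu_TCPP against Control, 2 members were called higher with no low-count filter and with the 6 libraries alone, the second being Timp1, and 1 to 2 over the left-out libraries, 2 being without Au_TCPP replicate 2. With library totals alone, 30.2% of the calls for Au_TCPP against Cu_TCPP were higher, beside 52.5%, and with offsets for gene length 61.0% of those for Cu_TCPP against Control, beside 47.6%. The causes were not tested.

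Equal replicate numbers did not pair the libraries, with correlations of same-numbered deviations between -0.0846 and 0.0897. With the replicate block 4717 genes were higher and 4788 lower for Au_TCPP against Control, Mmp13 passed there at 0.62 (edgeR adjusted p = 0.019), and Mmp3 passed for Cu_TCPP against Control at -0.645 (edgeR adjusted p = 0.035). Timp3, with 2 counts in all, was not tested.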
